A study of Mus musculus with 158 samples.

Results

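The 10 genes Mfn1, Mfn2, Opa1, Dnm1l, Fis1, Mff, Pink1, Rhot1, Rhot2 and Trak1, which shape and move mitochondria, were followed through single mouse brain cells. They were chosen by name as genes of mitochondrial fusion, fission, quality control and transport, and each matched 1 row of the deposited count table, which makes 10 of 21956 gene rows. The study collected the RNA of single brain cells by patch pipette, amplified it in 3 rounds of antisense RNA amplification, and sequenced 158 libraries made from polyA RNA with a stranded kit. Libraries taken to be of the same cell were summed, which left 149 cells. No cell was treated with an agent.

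The cells formed 6 groups, all labelled as C57/BL6/N or C57/BL6 mice, with no genetic change named. From acute slices came 5 neurons of hippocampal field CA3, 15 neurons of field CA1 and 22 neurons of the cortex, all C57/BL6/N. From primary culture came 8 hippocampal neurons kept for 15 days (C57/BL6), 86 cortical astrocytes and 13 cortical neurons. Of the astrocytes, 3 were cultured for 7 days (C57/BL6), 70 for 12 days, 5 for 14 days and 8 for 15 days (C57/BL6/N from 12 days on). The cultured cortical neurons (C57/BL6/N) included 3 of 6 days, 3 of 10 days, 4 of 13 days and 3 of 15 days. Neither the age of the animals nor which animal or culture a cell came from is given in the sources used here. Each group was therefore treated as 1 sample, and no comparison between groups carries a test.

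Mitochondria in cells continually join and divide. Fusion of the outer membrane is carried out by the mitofusins Mfn1 and Mfn2, and fusion of the inner membrane by Opa1, which also shapes the cristae. Division is carried out by the dynamin-like GTPase encoded by Dnm1l (Drp1), which is brought from the cytosol to the outer membrane by receptors such as Mff, with Fis1 as another outer membrane protein of the fission machinery. The kinase Pink1 builds up on damaged mitochondria and marks them for removal by autophagy. The outer membrane GTPases Rhot1 and Rhot2 (Miro1 and Miro2) and the adaptor Trak1 tie mitochondria to microtubule motors, which carry them along the long axons and dendrites of neurons.

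Library totals ran from 535369 to 38680739 counts, and the median number of genes detected per cell was 2180 in CA3, 1909 in CA1, 1813 in cortical slice neurons, 7498 in cultured hippocampal neurons, 4931 in astrocytes and 4459 in cultured cortical neurons. Of 20 neuron markers the median cell held 55% in CA3 and CA1, 50% in cortical slice neurons, 95% in cultured hippocampal neurons, 20% in astrocytes and 65% in cultured cortical neurons. Of these markers 5, among them Snap25 and Rbfox3, were detected in no astrocyte, but at least 2 of the 20 were detected in 78 of 86 astrocytes. Of 20 astrocyte markers 10, among them Gfap and Gja1, were detected in no cultured hippocampal neuron, but at least 2 were detected in 8 of 8 of these neurons, whose median cell held 27.5% of the list. More astrocyte than neuron markers were detected in 1 CA1, 4 cortical slice and 3 cultured cortical neurons. At least 2 of 10 microglia markers were detected in 1 of 5 CA3 cells, 8 of 14 CA1 cells and 10 of 22 cortical slice cells. In every astrocyte at least 2 of 10 fibroblast and meningeal markers were detected. The cultured hippocampal neurons were rich in markers of inhibitory neurons, which summed to between 9487 and 23706 CPM per cell, while the same markers had a median of 70.6 CPM in CA1 and 575 CPM in cultured cortical neurons.

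Levels are given as CPM, counts scaled to a total of 1000000, and are summed over the cells of a group unless a cell is named. Detection was judged at equal depth: 1000000 counts were drawn from each cell, and a gene with 5 or more of them was called detected. The 1 CA1 cell below that depth was left out of detection. Intervals are 95%, exact Poisson for summed counts and Clopper-Pearson for shares, and cover counting error only, since amplified reads are not independent molecules.

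How many of the 10 genes were detected in a cell differed widely between groups. The median cell held 4 of them in CA3 (range 3 to 6), 3 in CA1 (0 to 7), 3.5 among cortical slice neurons (0 to 8), 10 among cultured hippocampal neurons (8 to 10), 7 among astrocytes (1 to 10) and 7 among cultured cortical neurons (1 to 10). All 10 were detected together in 5 of 8 cultured hippocampal neurons, 8 of 86 astrocytes and 1 of 13 cultured cortical neurons, and in no slice cell. None was detected in 1 CA1 cell and in 5 of 22 cortical slice cells. The number followed the number of all genes detected in the cell, with a Spearman rho of 0.90 over 148 cells that share library depth and amplification with it. Among the cells with 2000 to 6000 genes detected, the medians were 4 in CA3 (4 cells), 3.5 in CA1 (6 cells), 5 in cortical slice neurons (9 cells), 9 in cultured hippocampal neurons (3 cells), 6 in astrocytes (50 cells) and 7.5 in cultured cortical neurons (6 cells). The slice groups thus stayed below the culture groups at this narrower range, although their median numbers of genes within it, from 2231 to 3227, also stayed below the 4113 to 5601 of the culture groups.

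**Figure D1:**
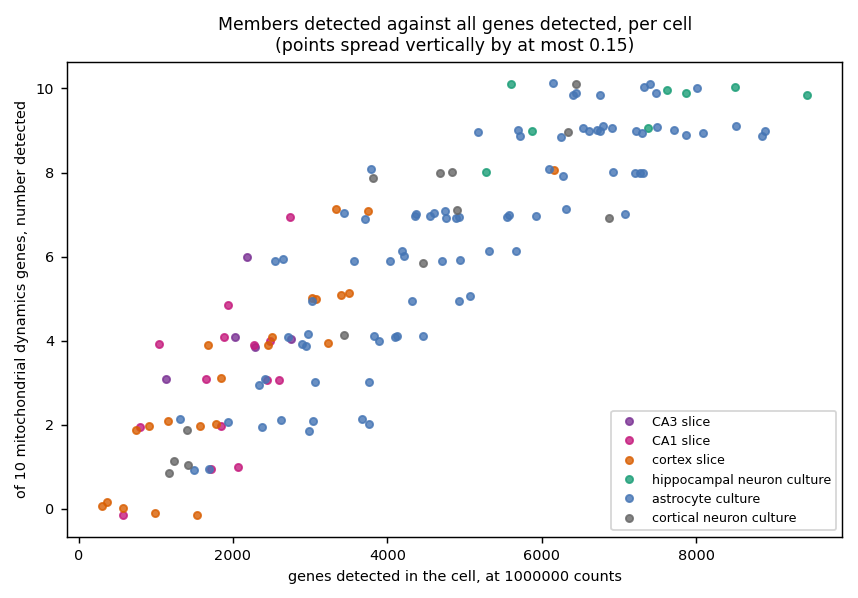
Number of the 10 genes detected in each cell (vertical axis) against the number of all genes detected in the same cell at 1000000 counts (horizontal axis), coloured by group. The cultured hippocampal neurons lie at 8 to 10 genes on the upper right, and the slice neurons mostly on the lower left.

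At least 1 of the 3 fission genes was detected in more slice cells and more astrocytes than at least 1 of the 3 fusion genes. These counts take no account of gene length or level. They were not made for other sets of 3 genes, so whether the difference is particular to fission and fusion was not tested. At least 1 of Dnm1l, Fis1 and Mff was detected in 5 of 5 CA3, 11 of 14 CA1 and 16 of 22 cortical slice cells. At least 1 of Mfn1, Mfn2 and Opa1 was detected in 3 of 5 CA3, 5 of 14 CA1 and 9 of 22 cortical slice cells. A fission gene without any fusion gene was detected in 2 CA3, 6 CA1 and 8 cortical slice cells, and a fusion gene without any fission gene in 1 cortical slice cell and no CA1 or CA3 cell. In culture a fission gene was detected in 8 of 8 hippocampal neurons, 80 of 86 astrocytes and 11 of 13 cortical neurons, and a fusion gene in 8, 73 and 11 of them. A fission gene without any fusion gene was found in 11 astrocytes and a fusion gene without any fission gene in 4, against 2 and 2 cultured cortical neurons. Both kinds were detected together in 8 of 8 hippocampal neurons, 69 of 86 astrocytes and 9 of 13 cortical neurons.

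Single cells carried much of the summed level. In 24 of the 60 combinations of a gene and a group, 1 cell gave more than 50% of the counts. These were all 10 genes in CA3, 7 in CA1, 2 in cortical slice neurons and 5 in cultured cortical neurons, and none in cultured hippocampal neurons or astrocytes. The same count was not made over all genes, so it does not set the 10 genes apart from others. The largest share of 1 cell was 99.1% in CA3, 99.7% in CA1, 98.7% in cortical slice neurons, 39.7% in cultured hippocampal neurons, 43.7% in astrocytes and 80.3% in cultured cortical neurons. For each gene, groups next to each other in the order of summed levels overlapped in the range of their cells, in 50 of 50 such neighbours. Over all 150 pairs of groups and genes, the ranges stood apart only for Mfn2 between cultured hippocampal and CA3 neurons. Apart from cultured hippocampal neurons, every group had a cell at 0 CPM for each of the 10 genes, so the ranges of those groups had to overlap. Overlap of ranges was not counted over all genes.

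**Figure D2:**
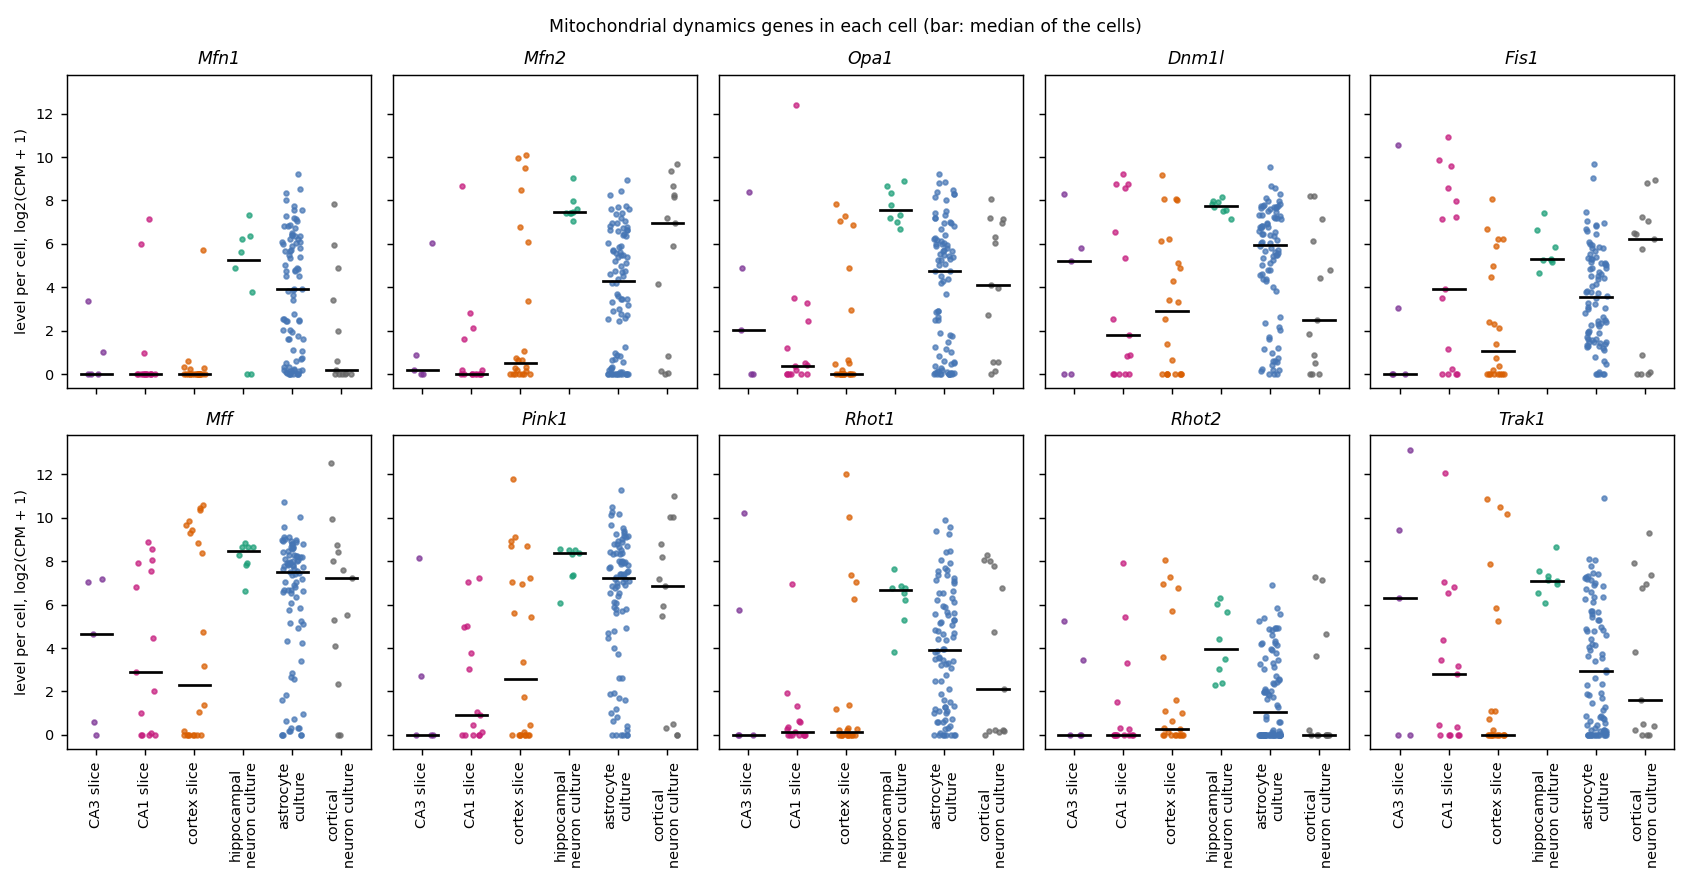
Level of each gene in each of the 149 cells, as log2(CPM + 1) on the vertical axis, by group on the horizontal axis, with a bar at the median of the cells. Cultured hippocampal neurons form mostly tight clusters, while the other groups run from 0 upward, with medians at or near 0 for several genes in the slice groups.

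Mfn1 (chromosome 3, 32529465 to 32579239, GRCm38) encodes a mitofusin. Its cells held 9.36, 0, 1.02, 0 and 0 CPM in CA3. The lowest, median and highest cells were at 0, 0 and 142 CPM in CA1, 0, 0 and 52 CPM among cortical slice neurons, 0, 38.6 and 161 CPM among cultured hippocampal neurons, 0, 14.1 and 589 CPM among astrocytes, and 0, 0.135 and 224 CPM among cultured cortical neurons. Few slice cells held Mfn1: it was detected in 1 of 5 CA3, 1 of 14 CA1 and 1 of 22 cortical slice cells, against 6 of 8 cultured hippocampal neurons, 50 of 86 astrocytes and 4 of 13 cultured cortical neurons. The summed level was 1.78 CPM in CA3, 6.10 in CA1, 3.01 in cortical slice neurons, 49.2 in cultured hippocampal neurons, 55.1 in astrocytes and 40.5 in cultured cortical neurons. The level in cultured cortical neurons was 9.36 CPM without its top cell, a 13-day neuron with 80.3% of the counts.

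Mfn2 (chromosome 4, 147873599 to 147904704) encodes the other mitofusin, which is also found at contacts with the endoplasmic reticulum. The CA3 cells held 0.814, 0, 64.4, 0.133 and 0 CPM. The lowest, median and highest cells were at 0, 0 and 410 CPM in CA1, 0, 0.412 and 1092 CPM among cortical slice neurons, 132, 174 and 527 CPM among cultured hippocampal neurons, 0, 18.6 and 483 CPM among astrocytes, and 0, 123 and 814 CPM among cultured cortical neurons. Each cultured hippocampal neuron held Mfn2 at 132 CPM or more, while in slices a few cells held most of it. It was detected in 1 of 5 CA3, 2 of 14 CA1, 7 of 22 cortical slice, 8 of 8 cultured hippocampal, 58 of 86 astrocyte and 9 of 13 cultured cortical cells. Summed levels were 7.10 CPM in CA3, 25 in CA1, 214 in cortical slice neurons, 205 in cultured hippocampal neurons, 67.2 in astrocytes and 237 in cultured cortical neurons.

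Astrocytes had the most even balance of the mitofusins in summed counts. Mfn2 made up 79.9% of Mfn1 plus Mfn2 counts in CA3 (95% interval 74.3% to 84.8%), 80.4% in CA1, 98.6% in cortical slice neurons, 80.6% in cultured hippocampal neurons, 55% in astrocytes (54.7% to 55.2%) and 85.4% in cultured cortical neurons (85.1% to 85.7%). Per kilobase of exon the shares were 82.4% in CA3, 82.8% in CA1, 98.8% in cortical slice neurons, 83.1% in cultured hippocampal neurons, 59% in astrocytes and 87.3% in cultured cortical neurons. Among cells with at least 10 counts of the pair, Mfn2 held more than 50% in 1 of 2 CA3, 3 of 5 CA1 and 7 of 8 cortical slice neurons, 8 of 8 cultured hippocampal neurons, 38 of 72 astrocytes and 10 of 11 cultured cortical neurons. The astrocytes ran through the whole range, with 11 cells under 5% and 11 over 95%. Cells with counts of almost only 1 of the mitofusins (under 5% or over 95%) were 1 of 2 in CA3, 5 of 5 in CA1, 8 of 8 cortical slice neurons, 2 of 8 cultured hippocampal neurons, 22 of 72 astrocytes and 9 of 11 cultured cortical neurons, so none of these CA1 and cortical slice neurons held 5% or more of both.

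**Figure D3:**
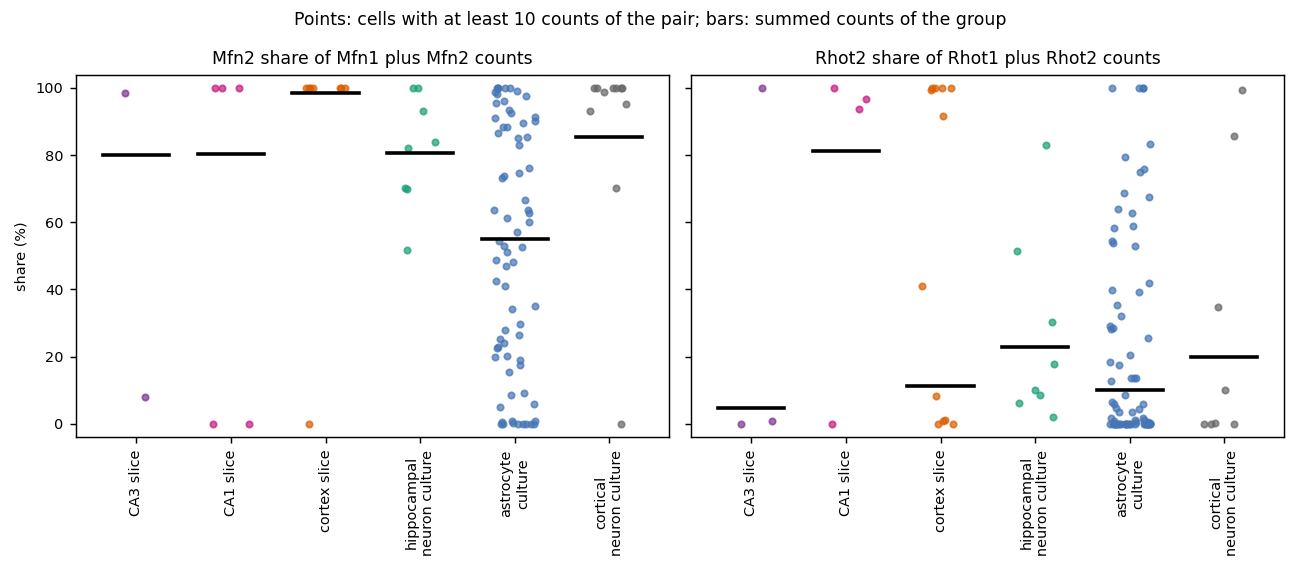
Share of Mfn2 in the counts of Mfn1 plus Mfn2 (left) and of Rhot2 in those of Rhot1 plus Rhot2 (right), in percent, for each cell with at least 10 counts of the pair (points) and for the summed counts of the group (bars). Mfn2 shares of astrocytes fill the range from 0% to 100%, while 10 of 11 cultured cortical and 7 of 8 cortical slice neurons lie above 50% Mfn2.

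Opa1 (chromosome 16, 29579334 to 29654884) encodes the inner membrane fusion GTPase. In CA3 the cells held 0, 0, 335, 28.4 and 3.06 CPM. The lowest, median and highest cells were at 0, 0.305 and 5359 CPM in CA1, 0, 0 and 224 CPM among cortical slice neurons, 100.4, 189.6 and 468 CPM among cultured hippocampal neurons, 0, 26.1 and 596 CPM among astrocytes, and 0, 16.2 and 271 CPM among cultured cortical neurons. Every cultured hippocampal neuron thus held more Opa1 than the median cell of any other group. The summed CA1 level of 341 CPM, the highest of the 6 groups, came to 99.7% from 1 cell and was 1.25 CPM without it. The other summed levels were 44 CPM in CA3, 45.8 in cortical slice neurons, 209 in cultured hippocampal neurons, 67.6 in astrocytes and 94.6 in cultured cortical neurons. Detection was 2 of 5 in CA3, 3 of 14 in CA1, 6 of 22 in cortical slice neurons, 8 of 8 in cultured hippocampal neurons, 53 of 86 in astrocytes and 9 of 13 in cultured cortical neurons.

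Dnm1l (chromosome 16, 16312230 to 16358959) encodes the GTPase that constricts and divides mitochondria. Its CA3 cells held 0, 0, 317, 35.7 and 54.6 CPM. From lowest through median to highest, the cells were at 0, 2.44 and 602 CPM in CA1, 0, 6.8 and 570 CPM among cortical slice neurons, 139.9, 216 and 280.3 CPM among cultured hippocampal neurons, 0, 61.3 and 749 CPM among astrocytes, and 0, 4.53 and 294 CPM among cultured cortical neurons. Dnm1l had the narrowest spread for its mean of the 10 genes among cultured hippocampal neurons, at 215 ± 45.5 CPM (SD over 8 cells). It was detected in 3 of 5 CA3, 5 of 14 CA1, 11 of 22 cortical slice, 8 of 8 cultured hippocampal, 68 of 86 astrocyte and 6 of 13 cultured cortical cells. Summed levels were 47.8 CPM in CA3, 105 in CA1, 120.2 in cortical slice neurons, 223 in cultured hippocampal neurons, 115 in astrocytes and 78.6 in cultured cortical neurons. Its exons share 243 bases with the antisense gene Gm49521, and reads of the pair cannot be told apart without the strand setting of the counting.

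Fis1 (chromosome 5, 136953275 to 136966234) encodes an outer membrane protein of the fission machinery and has the shortest exons of the 10 genes, 1714 bases. The CA3 cells held 0, 7.14, 0, 0 and 1509 CPM. By lowest, median and highest, the cells were at 0, 14.0 and 1940.7 CPM in CA1, 0, 1.15 and 266 CPM among cortical slice neurons, 23.9, 38.1 and 168 CPM among cultured hippocampal neurons, 0, 10.6 and 808 CPM among astrocytes, and 0, 73.4 and 484 CPM among cultured cortical neurons. CA1 was the slice group where Fis1 reached many cells, with detection in 8 of 14 there, against 2 of 5 in CA3, 7 of 22 in cortical slice neurons, 8 of 8 in cultured hippocampal neurons, 53 of 86 in astrocytes and 8 of 13 in cultured cortical neurons. Its summed CA1 level of 186 CPM was also the highest of the groups and remained at 147 CPM without the top cell. The other groups were at 110.3 CPM in CA3, 40.9 in cortical slice neurons, 60.9 in cultured hippocampal neurons, 42.8 in astrocytes and 128 in cultured cortical neurons.

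Mff (chromosome 1, 82724890 to 82752394) encodes the main receptor for Drp1 on the outer membrane. The CA3 cells held 146, 0.496, 0, 23.7 and 130.2 CPM. In lowest, median and highest cells Mff was at 0, 6.41 and 473 CPM in CA1, 0, 4.82 and 1524 CPM among cortical slice neurons, 97.2, 357 and 452 CPM among cultured hippocampal neurons, 0, 178 and 1721 CPM among astrocytes, and 0, 150.1 and 5838 CPM among cultured cortical neurons. It was detected in 3 of 5 CA3, 7 of 14 CA1, 11 of 22 cortical slice, 8 of 8 cultured hippocampal, 72 of 86 astrocyte and 11 of 13 cultured cortical cells. Summed levels were 42.1 CPM in CA3, 94.2 in CA1, 432 in cortical slice neurons, 313 in cultured hippocampal neurons, 221 in astrocytes and 406 in cultured cortical neurons. The level in cultured cortical neurons was 179.6 CPM without its top cell, a 6-day neuron with 57.6% of the counts. The exons of Mff share 195 bases with C430014B12Rik on the other strand.

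Pink1 (chromosome 4, 138313409 to 138326307), the mitophagy kinase, stood highest of the 10 genes per length of exon in 4 groups. Its summed level per kilobase of exon was 88.5 CPM in cortical slice neurons, 101 in cultured hippocampal neurons, 108 in astrocytes and 191 in cultured cortical neurons, where the next member was at 44.3 (Mff), 42.8 (Dnm1l), 24.9 (Fis1) and 74.9 (Fis1) in the same order. By summed CPM without exon length, Pink1 stood first only in astrocytes and cultured cortical neurons. Mff was above it in cortical slice neurons, at 432 against 237 CPM, and in cultured hippocampal neurons, at 313 against 269 CPM. Whether counts rose with exon length was not tested. Among cortical slice neurons the first place per kilobase rested on the 5 cells with the title letter F, where Pink1 was at 216 CPM per kilobase. Of the Pink1 counts of these 5 cells, 58.6% came from 1 cell. In the 16 cells with the letter P it was at 34.3, below Mff at 57.9, Rhot1 at 50.7 and Mfn2 at 37.9. In CA3 Pink1 took the fourth place at 39 CPM per kilobase, where Trak1 led at 67, and in CA1 the fifth place at 11.6, where Fis1 led at 108. Per cell, Pink1 was at 5.49, 281, 0, 0 and 0 CPM in CA3. The lowest, median and highest cells were at 0, 0.915 and 148 CPM in CA1, 0, 5.82 and 3509 CPM among cortical slice neurons, 67, 329.9 and 372 CPM among cultured hippocampal neurons, 0, 151 and 2502 CPM among astrocytes, and 0, 117 and 2037 CPM among cultured cortical neurons. CA1 had no cell above 148 CPM, and its summed level was 31 CPM, against 104.3 in CA3, 237 in cortical slice neurons, 269 in cultured hippocampal neurons, 290.0 in astrocytes and 510.0 in cultured cortical neurons. Detection was 2 of 5 in CA3, 5 of 14 in CA1, 11 of 22 in cortical slice neurons, 8 of 8 in cultured hippocampal neurons, 71 of 86 in astrocytes and 9 of 13 in cultured cortical neurons.

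Rhot1 (chromosome 11, 80209019 to 80267907), which encodes the transport GTPase Miro1, was at 53.3, 0, 0, 1177 and 0 CPM in the CA3 cells. Lowest, median and highest cells were at 0, 0.0817 and 121 CPM in CA1, 0, 0.0840 and 4130.0 CPM among cortical slice neurons, 13.1, 100.3 and 199.6 CPM among cultured hippocampal neurons, 0, 13.9 and 943 CPM among astrocytes, and 0, 3.28 and 312 CPM among cultured cortical neurons. Slice levels thus rested on a few cells: 1 neuron gave 97.1% of the CA3 counts, 1 gave 92.8% in CA1 and 1 gave 74.4% among cortical slice neurons. Summed levels were 333 CPM in CA3, 4.46 in CA1, 261 in cortical slice neurons, 91.7 in cultured hippocampal neurons, 79.4 in astrocytes and 116 in cultured cortical neurons. It was detected in 2 of 5 CA3, 1 of 14 CA1, 5 of 22 cortical slice, 8 of 8 cultured hippocampal, 56 of 86 astrocyte and 6 of 13 cultured cortical cells.

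Rhot2 (chromosome 17, 25838457 to 25844851), which encodes its paralog Miro2, was the lowest member per kilobase of exon in the 3 culture groups, at 6.09 CPM in hippocampal neurons, 1.97 in astrocytes and 6.42 in cortical neurons. Its exons share 1307 bases with Gm20683 and 81 bases with Wdr90 on the same strand, so its counts are uncertain. The CA3 cells held 0, 36.6, 0, 9.94 and 0 CPM. Its lowest, median and highest cells were at 0, 0 and 239 CPM in CA1, 0, 0.218 and 263 CPM among cortical slice neurons, 3.86, 15.2 and 78.2 CPM among cultured hippocampal neurons, 0, 1.13 and 118 CPM among astrocytes, and 0, 0 and 152 CPM among cultured cortical neurons. No group had a cell above 263 CPM. Summed levels were 16.2 CPM in CA3, 19.2 in CA1, 33.2 in cortical slice neurons, 27.1 in cultured hippocampal neurons, 8.73 in astrocytes and 28.5 in cultured cortical neurons. Rhot2 was detected in 2 of 5 CA3, 3 of 14 CA1, 6 of 22 cortical slice, 6 of 8 cultured hippocampal, 31 of 86 astrocyte and 4 of 13 cultured cortical cells.

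Between the Miro genes, Rhot2 was the lower per kilobase of exon in every group but CA1, with 7.50% of the pair in CA3, 87.8% in CA1, 17.5% in cortical slice neurons, 33% in cultured hippocampal neurons, 15.5% in astrocytes and 29.2% in cultured cortical neurons. The Rhot2 share of Rhot1 plus Rhot2 counts was 4.63% in CA3, 81.2% in CA1, 11.3% in cortical slice neurons, 22.8% in cultured hippocampal neurons, 9.92% in astrocytes and 19.8% in cultured cortical neurons. The CA1 share rested on 4 cells with at least 10 counts of the pair. In CA1, 1 cell gave 82.7% of the Rhot2 counts and 1 cell gave 92.8% of the Rhot1 counts. The CA3 share rested on cell 4, which held 8879 of the 9141 Rhot1 counts. Outside that cell, CA3 had 262 Rhot1 counts, all in cell 1, and 369 Rhot2 counts, all in cell 2. In cortical slice neurons the median cell stood at 66.3% Rhot2 while the summed counts stood at 11.3%, and 1 cell held 74.4% of the Rhot1 counts. Among 74 astrocytes, 37 had under 5% Rhot2 and 4 had over 95%.

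Trak1 (chromosome 9, 121297502 to 121474918), the adaptor between Miro and the motors, had the highest summed level per kilobase of exon of the 10 genes in CA3, at 67 CPM, and the next to highest in CA1, at 55.8 CPM. Its CA3 cells held 0, 0, 77.9, 685 and 9040.0 CPM. The lowest, median and highest cells were at 0, 5.90 and 4310.3 CPM in CA1, 0, 0 and 1881 CPM among cortical slice neurons, 66.1, 137 and 399 CPM among cultured hippocampal neurons, 0, 6.68 and 1902 CPM among astrocytes, and 0, 2.03 and 637 CPM among cultured cortical neurons. The summed levels were 842 CPM in CA3, 701 in CA1, 182 in cortical slice neurons, 146 in cultured hippocampal neurons, 73.7 in astrocytes and 139.7 in cultured cortical neurons. Without the top cell of the group they were 212 CPM in CA3 and 27.8 CPM in CA1. It was detected in 3 of 5 CA3 cells, 8 of 14 CA1 cells, 6 of 22 cortical slice neurons, 8 of 8 cultured hippocampal neurons, 46 of 86 astrocytes and 6 of 13 cultured cortical neurons.

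**Figure D4:**
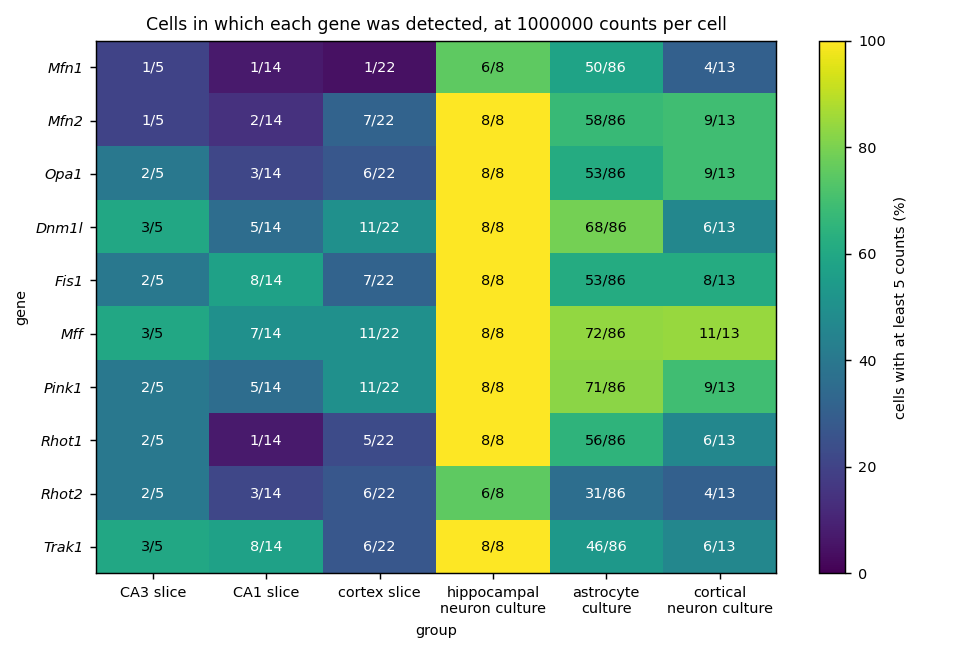
Number of cells in which each gene (rows) had at least 5 counts at 1000000 counts per cell, out of the cells of each group (columns), coloured by percent. The column of cultured hippocampal neurons is full for 8 of the 10 genes, and the Mfn1 row is nearly empty for the slice groups.

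Between groups, each gene was compared as the log2 ratio of summed CPM + 1. The interval beside it combines the exact Poisson limits of both counts. Another 3 measures were set beside it: the ratio of the means of the cells, the ratio without the top cell of the gene in each group, and the difference in the share of cells detected. A gene was measured in a comparison with at least 10 counts over both groups and a count in at least 3 cells, which all 10 genes met in all 7 comparisons. Several comparisons share cells: cultured cortical neurons enter 3 of them and CA1 neurons enter 3.

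Cortical astrocytes were set against neurons of the same kind of culture. Mfn2, Fis1 and Rhot2 were at a level more than 2-fold lower in astrocytes, and none was more than 2-fold higher. That is 3 of 10 genes past 2-fold, against 49.7% of the 17473 measured genes, made up of 29.8% higher and 19.9% lower. Mfn2 had a log2 ratio of -1.80 (-1.82 to -1.78) and kept its direction in all 4 measures, with 58 of 86 astrocytes against 9 of 13 neurons detected. Fis1 had a log2 ratio of -1.56 (-1.59 to -1.53) in summed counts, with nearly the same share of cells detected, 61.6% of astrocytes and 61.5% of neurons. Rhot2 had -1.60 (-1.66 to -1.54), but -0.62 without the top cells.

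Mfn1 and Dnm1l were the genes at a higher level in astrocytes, which makes 2 of 10 against 61.9% of all measured genes. The log2 ratio of Mfn1 was 0.43 (0.39 to 0.47), and 2.30 without the top cell of each group. That of Dnm1l was 0.54 (0.51 to 0.57), and 1.51 without the top cells, with detection in 79.1% of astrocytes against 46.2% of neurons. Within the libraries base-called with bcl2fastq2, which hold all astrocytes and 7 of 15 cultured cortical neuron libraries, Mfn1 was at -0.02 and Dnm1l at 0.03. Opa1 stood at -0.48 in summed counts, 0.12 in the mean of the cells and 0.07 without the top cells. Mff stood at -0.88, -1.52 and 0.26 by the same measures. Pink1, Rhot1 and Trak1 had log2 ratios of -0.81, -0.54 and -0.91, with detection in a larger share of astrocytes. The median over the 10 genes was -0.84, against 0.08 over all measured genes, and 7 were detected in a larger share of astrocytes, against 62.2% of genes. Mfn1, Mfn2 and Dnm1l kept 1 direction in all 4 measures, 3 of 10 against 61.2% of genes. Fibroblast and meningeal markers were more than 2-fold higher in astrocytes for 9 of 9 measured genes, and summed to 188 to 36887 CPM (median 4010) per astrocyte against 0.239 to 5747 CPM (median 229) per cultured cortical neuron, where Col1a1, Col1a2, Col3a1, Dcn and Lum were detected in no cell. Their part in the differences was not tested. Without the 3 neurons with more astrocyte than neuron markers, 5 of 10 genes were past 2-fold, and Rhot1 was at 0.08.

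**Figure D5:**
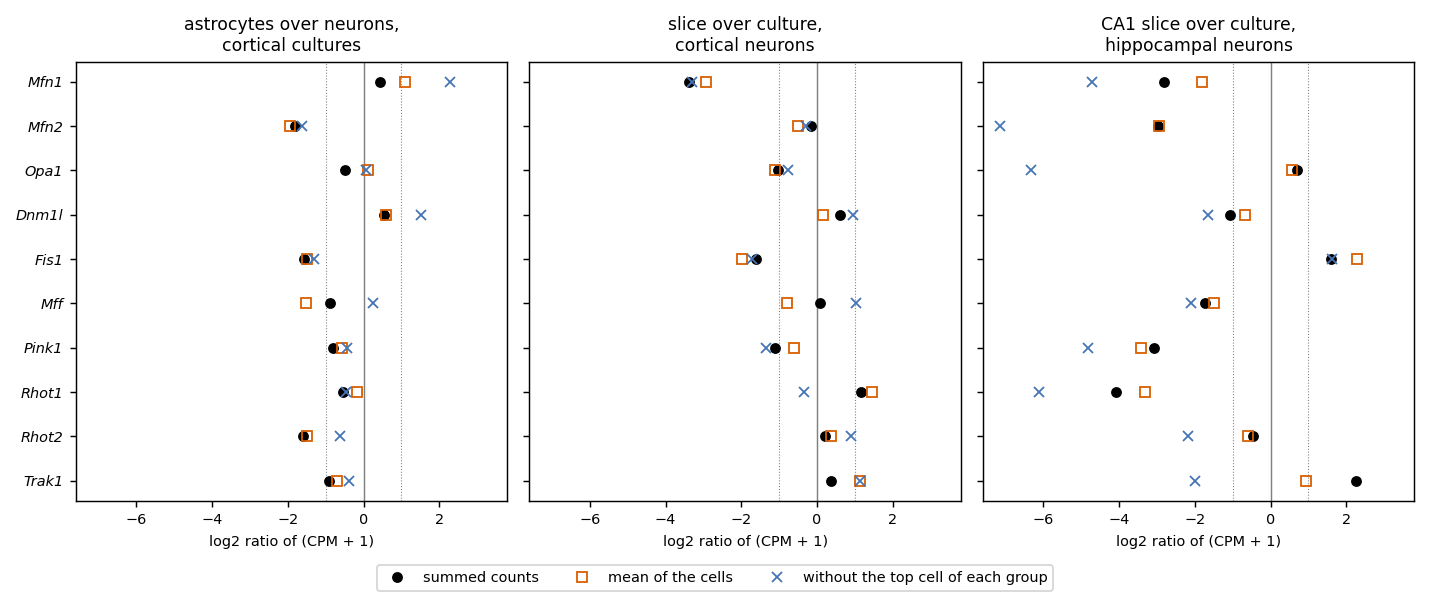
Log2 ratio of CPM + 1 for each gene in 3 comparisons, from summed counts (filled circles), from the mean of the cells (open squares) and without the top cell of the gene in each group (crosses), with dotted lines at 2-fold. Mfn2 in the left panel lies at -1.80, -1.95 and -1.62, while Opa1 and Trak1 in the right panel change side without their top cell.

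Cortical neurons from slices were set against those from culture. Rhot1 was more than 2-fold higher in slice neurons, and Mfn1, Opa1, Fis1 and Pink1 were more than 2-fold lower. These are 5 of 10 genes past 2-fold, against 61.7% of the 13741 measured genes, made up of 24.7% higher and 37% lower. At a higher level in slice neurons were 5 of 10 genes, against 44.2% of genes. Mfn1 had the largest ratio in size, -3.37 (-3.50 to -3.24), and lay between -5.31 and -2.51 under the alternatives tried. Fis1 had -1.63 (-1.68 to -1.57), Opa1 had -1.03 (-1.08 to -0.98) and Pink1 had -1.10 (-1.13 to -1.08). A smaller share of slice neurons had these 4 genes detected, with differences of -26.2 points for Mfn1, -42 for Opa1, -29.7 for Fis1 and -19.2 for Pink1.

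For Rhot1 the log2 ratio was 1.17 (1.14 to 1.20), and it was -0.35 without the top cell of each group, with detection in 5 of 22 slice neurons against 6 of 13 cultured neurons. Dnm1l was the gene detected in a larger share of slice neurons, 11 of 22 against 6 of 13, with a log2 ratio of 0.61, while 20.8% of genes were detected in a larger share. Mfn2, Mff, Rhot2 and Trak1 stood within 2-fold, at -0.15, 0.09, 0.21 and 0.38. The median over the 10 genes was -0.03, against -0.24 over all genes. The other 9 had a smaller share of slice neurons with detection, against 70.8% of all genes. Mfn1, Mfn2, Opa1, Dnm1l, Fis1 and Pink1 kept 1 direction in all 4 measures, 6 of 10 against 59.8% of genes. Slice neurons also held more microglia markers: all 10 of the list were at a higher summed level there, and their sum per cell had a median of 539 CPM (0.115 to 16510.0) in slice neurons against 0.270 CPM (0 to 1865) in cultured neurons, where Aif1 and Cx3cr1 were detected in no cell. Without the 10 slice cells with at least 2 of these markers, Mfn1 was at -2.70, Opa1 at -1.95, Fis1 at -2.29, Pink1 at -0.64 and Rhot1 at 1.59. Cortical slice cells with the title letters P (16 cells) and F (5 cells), which the labels do not explain, differed in summed level. Rhot1 was at 376 and 0.198 CPM, Mff at 565 and 118 CPM, and Pink1 at 91.8 and 578 CPM. Single cells carried much of these sums. Without the top cell, Rhot1 was at 101 CPM in P and Pink1 at 265 CPM in F. Rhot1 was detected in 4 of 16 P cells and 0 of 5 F cells. For Mff, 1 cell gave 95.4% of the F counts. The median cell went the other way for Mff, at 0.808 CPM in P and 8.02 CPM in F. Mff was detected in 7 of 16 P and 3 of 5 F cells. Median cells for Pink1 were at 1.25 CPM in P and 411 CPM in F.

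Hippocampal CA1 neurons from slices were set against cultured hippocampal neurons. Every gene was detected in a smaller share of CA1 cells, with differences from -42.9 percentage points for Fis1 and Trak1 to -92.9 for Rhot1. That is 10 of 10 genes, against 85.6% of the 12806 measured genes (6.95% had a larger share), and the median difference was -64.3 points, against -42.9 points over all genes. In summed level 2 genes were more than 2-fold higher in CA1 and 6 more than 2-fold lower, 8 of 10 against 69.9% of genes past 2-fold (18% higher, 51.9% lower). A higher level in CA1 was found for 3 of 10, against 31.1% of genes. Of all genes past 2-fold, 25.8% were higher in CA1, and 41.5% with TMM factors or 42.9% with DESeq2 size factors, which moved the median of all genes by 0.76 and 0.82.

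Rhot1 had the lowest ratio in this comparison, -4.09 (-4.24 to -3.93), with detection in 1 of 14 CA1 cells against 8 of 8 cultured neurons. Pink1 followed at -3.08, Mfn2 at -2.98, Mfn1 at -2.82 and Mff at -1.72, and these 5 genes lay below 0 under the alternatives tried. Dnm1l was at -1.07, but at 0.04 with TMM factors and 0.16 with DESeq2 size factors. Fis1 was at a higher level in CA1, at 1.59 (1.53 to 1.65), and 1.61 without the top cells, although detected in 8 of 14 CA1 cells against 8 of 8 cultured neurons. Trak1, at 2.26, was at -1.99 without the top cell of each group. Opa1, at 0.71, was at -6.33 without them, and Rhot2 was at -0.47, or 0.59 with TMM factors. The median over the 10 genes was -1.40, against -1.11 over all genes. The groups also differed in inhibitory neuron markers, as given above, and in microglia markers, whose sum had a median of 482 CPM in CA1 (0.253 to 19200.1) and 8.68 CPM in cultured neurons (0 to 36.2), where 7 of 10 were detected in no cell. Of the 10 genes, 7 kept 1 direction in all 4 measures, against 63.9% of genes. Slice or culture, strain label and these markers cannot be told apart here.

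Within slices, CA1 neurons were set against cortical neurons. Opa1, Fis1 and Trak1 were more than 2-fold higher in CA1, and Mfn2, Mff, Pink1 and Rhot1 more than 2-fold lower, 7 of 10 genes against 62.4% of the 12666 measured genes (22.6% higher, 39.8% lower). With Mfn1, 4 of 10 were at a higher level in CA1, against 38.9% of genes. Of all genes past 2-fold, 36.3% were higher in CA1, and 46.5% with DESeq2 size factors. Fis1 had a log2 ratio of 2.16 (2.10 to 2.21), with detection in 57.1% of CA1 against 31.8% of cortical cells, and lay between 1.73 and 3.34 under all alternatives. Rhot1 was at -5.58 (-5.72 to -5.45), Pink1 at -2.89 and Mff at -2.19, and each stayed below 0 in all of them. The share of cells with Mff detected was the same, 7 of 14 in CA1 and 11 of 22 in the cortex. Its median cell was at 6.41 CPM in CA1 and 4.82 CPM among cortical slice neurons. Mfn2, at -3.05, was at -6.66 without the top cells. Opa1, at 2.87 in summed counts, was at -4.0 without the top cell of each group, and Trak1, at 1.94, was at -2.11. The median over the 10 genes was -0.47, against -0.37 over all genes, and 3 were detected in a larger share of CA1 cells, against 34.9% of genes (55.1% in a smaller share, 6 of 10 members). Microglia markers were at a higher level in CA1 for 9 of 10 genes, and without the slice cells with at least 2 of them Opa1 was at -2.70 and Trak1 at -1.95. Mfn1, Mfn2, Fis1, Pink1, Rhot1 and Rhot2 kept 1 direction in all 4 measures, 6 of 10 against 58.1% of genes. Mfn1 was detected in only 1 of 14 CA1 and 1 of 22 cortical slice cells. Without the top cell of each group it was at 0.522 CPM in CA1 and 0.0418 CPM in the cortex, both below the pseudocount of 1 CPM.

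In the hippocampus, the 5 CA3 cells were set against CA1. Pink1 and Rhot1 were more than 2-fold higher in CA3, and Mfn1, Mfn2, Opa1, Dnm1l and Mff more than 2-fold lower, 7 of 10 genes against 71% of the 9378 measured genes (24.8% higher, 46.2% lower). With Trak1, 3 of 10 were at a higher level in CA3, against 35.6% of genes. Rhot1 had a log2 ratio of 5.94 (5.78 to 6.09), and 1.38 without CA3 cell 4, which held 97.1% of its CA3 counts. Pink1 was at 1.72 (1.61 to 1.83), and at -3.65 without CA3 cell 2, which held 99.1%. Opa1 was at -2.93 and at 2.15 without the top cell of each group. A larger share of CA3 cells had 9 of the 10 genes detected, against 43.2% of all genes (47.5% had a smaller share), with Fis1 the exception at 2 of 5 against 8 of 14. These shares rest on 5 cells, and their intervals are wide: 3 of 5 cells for Dnm1l covers 14.7% to 94.7%, against 12.8% to 64.9% for 5 of 14 in CA1. Fis1, Rhot1 and Trak1 kept 1 direction in all 4 measures, 3 of 10 against 57.1% of genes. CA3 cell 5 held 97.6% of the Fis1 counts and 76.6% of the Trak1 counts of CA3. Without that cell Trak1, at 0.26 in summed counts, was at -1.72. By the mean of the cells Fis1 was at -0.004. The median over the 10 genes was -0.93, against -0.70 over all genes. Microglia markers were more than 2-fold lower in CA3 for 10 of 10 genes, at 0.610 to 311 CPM per cell (median 2.03) in CA3, where 7 of 10 were detected in no cell, and 0.253 to 19200.1 CPM (median 482) in CA1. Without the cells with at least 2 of them, Mfn1 was at 0.49, Opa1 at 3.75 and Rhot1 at -0.15.

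Between cultured neurons, those of the hippocampus were set against those of the cortex. All 10 genes were detected in a larger share of hippocampal neurons, against 77.1% of the 13485 measured genes, with a median difference of 41.3 points against 24 points over all genes. Opa1 at 1.13 (1.09 to 1.17) and Dnm1l at 1.49 (1.45 to 1.53) were more than 2-fold higher, and Fis1 at -1.06 (-1.12 to -1.01) more than 2-fold lower, 3 of 10 against 55.6% of genes (30.3% higher, 25.3% lower). A higher level in hippocampal neurons was found for 4 of 10, against 53.9% of genes. Of all genes past 2-fold, 54.5% were higher in hippocampal neurons, and 42.9% with TMM factors, which moved the median of all genes by -0.26. Opa1 and Dnm1l stayed above 0 and Fis1 below 0 in all alternatives, and within the libraries of bcl2fastq2 they were at 0.97, 0.98 and -0.96. Mfn1 was at 0.27 and Trak1 at 0.06 in summed counts, and at -0.13 and -0.35 with TMM factors. Mfn2, Mff, Pink1, Rhot1 and Rhot2 were at -0.21, -0.38, -0.92, -0.33 and -0.07. The 8 hippocampal neurons were all of 15 days and labelled C57/BL6, while all cultured cortical neurons were labelled C57/BL6/N. Region and strain label can therefore not be told apart here. Of 12 inhibitory neuron markers, 7 were more than 2-fold higher in hippocampal neurons and 2 more than 2-fold lower, and the part of these markers was not tested. The 3 cortical neurons of 15 days held 143.9 to 645 CPM of Mfn2 and 60.7 to 2037 CPM of Pink1 per cell, but 0.403 to 27 CPM of Dnm1l, below each of the 8 hippocampal neurons. Mfn1, Opa1, Dnm1l and Trak1 kept 1 direction in all 4 measures, 4 of 10 against 57.6% of genes, and the median over the 10 genes was -0.14, against 0.15 over all genes. Astrocyte markers were more than 2-fold lower in hippocampal neurons for 18 of 19 genes, at 276 to 1260 CPM per cell (median 496), against 33.4 to 22753 CPM (median 5120) in cortical neurons, and 10 of 20 were detected in no hippocampal neuron. Their part in the differences was not tested.

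Among cultured cortical neurons the genes differed by culture age, with 3 or 4 cells at each age. Fis1, Pink1, Rhot1 and Trak1 had 6, 3, 4 and 3 counts in all in the 3 neurons of 6 days, which is 0.207, 0.104, 0.138 and 0.104 CPM. Mff was at 1727 CPM in the same 3 cells, 97.8% of it from 1 of them. At 10 days 1 of the 3 neurons gave 98.3% or more of the counts of each of the 9 members with a count, and Mfn1 had none. At 13 days all 4 neurons had Fis1, Mff, Pink1 and Trak1 detected, and at 15 days all 3 had Mfn2, Opa1, Fis1, Mff and Pink1 detected. Detection of genes of any kind went with these counts: the cells had 1232, 1173 and 3433 genes detected at 6 days, 1412, 4683 and 1401 at 10 days, 6877, 6346, 4844 and 3819 at 13 days, and 6446, 4459 and 4904 at 15 days. Its part in the differences by age was not tested. The ages of 6 and 15 days were base-called with bcl2fastq and those of 10 and 13 days with bcl2fastq2, so ages share a version only within these pairs. Within the first pair Pink1 was at 0.104 CPM at 6 days and 953 CPM at 15 days, and within the second at 732 CPM at 10 days and 215 CPM at 13 days.

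Astrocytes of 15 days were set against those of 12 days. Fis1 was more than 2-fold higher at 15 days, and Dnm1l and Rhot2 more than 2-fold lower, 3 of 10 genes against 32.2% of the 16569 measured genes (12.6% higher, 19.5% lower). With Rhot1, 2 of 10 were at a higher level at 15 days, against 39% of genes. Fis1 was at 100.4 CPM at 15 days against 22.9 CPM at 12 days in summed counts, a log2 ratio of 2.08 (2.04 to 2.13). It was detected in 7 of 8 cells against 39 of 70. The 8 cells of 15 days ran from 1.15 to 808 CPM with a median of 29, and the 70 cells of 12 days from 0 to 122 with a median of 6.52. Without the top cell at each age, the log2 ratio of Fis1 was 0.69, and the top 15-day cell gave 70% of the counts at that age. The 5 cells of 14 days, between 40.1 and 518 CPM, all held Fis1, with a summed level of 161 CPM, and the 3 cells of 7 days had 18.7 CPM.

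Dnm1l was at 49.4 CPM at 15 days against 108 CPM at 12 days, a log2 ratio of -1.12 (-1.17 to -1.07), and at 221 CPM at 14 days, so its level had no steady course with age. Rhot2 was at 2.04 CPM at 15 days against 9.88 CPM at 12 days (log2 ratio -1.84, -2.0 to -1.68), with detection in 1 of 8 against 27 of 70 cells. Trak1 was detected in 2 of 8 against 41 of 70 cells, with a log2 ratio of -0.64. A smaller share of the 15-day cells had 9 of the 10 genes detected, all but Fis1, against 42.2% of all genes. All genes but Rhot1 kept 1 direction in the 4 measures, 9 of 10 against 48.6% of genes. The median log2 ratio was -0.39, against -0.08 over all genes. Microglia markers were more than 2-fold higher at 15 days for 8 of 9 measured genes, with a median of 2.27, and their part in the differences was not tested.

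Other genes of the same pathways gave a setting for the members, from lists chosen from general knowledge. Between astrocytes and neurons of cortical cultures, 10 of 21 other transport genes were more than 2-fold lower in astrocytes and 4 more than 2-fold higher, with a median log2 ratio of -0.95. Of all measured genes 29.8% were more than 2-fold higher and 19.9% more than 2-fold lower, and the median was 0.08. Among the transport genes with the lowest ratios were Dync1i1, a dynein intermediate chain, at 1.97 CPM in astrocytes against 325 CPM in neurons, Kif5a, a neuronal kinesin-1 heavy chain, at 2.28 against 332 CPM, and Snph, which anchors mitochondria in axons, at 2.78 against 105 CPM. Of 15 other fission genes 3 were more than 2-fold higher and 4 more than 2-fold lower in astrocytes. Gdap1, an outer membrane protein of neurons linked to fission, was at 0.109 CPM in astrocytes against 329 CPM in neurons, and was detected in 1 of 86 against 10 of 13 cells. Of 16 other fusion genes 6 were more than 2-fold higher and 4 more than 2-fold lower in astrocytes. Yme1l1, a protease that cleaves Opa1, was at 127 CPM in astrocytes against 20.5 CPM in neurons, and Oma1, another such protease, at 23.9 against 0.707 CPM. Of 18 other mitophagy genes 3 were more than 2-fold higher and 6 more than 2-fold lower in astrocytes. Among those higher was Parl, a protease that cleaves Pink1, at 79.1 against 11.4 CPM. Among those lower were Map1lc3a, at 7.34 against 75.7 CPM, and Gabarapl1, at 180 against 775 CPM.

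Between CA1 and cultured hippocampal neurons, 10 of 16 other fusion genes, 6 of 14 fission genes, 9 of 20 transport genes and 9 of 18 mitophagy genes were more than 2-fold lower in CA1, against 51.9% of all measured genes. Their medians were -2.40, -0.61, -0.73 and -0.94 in the same order, against -1.11 over all genes. Fundc1, a mitophagy receptor, was at 0.385 CPM in CA1 against 82.1 CPM in cultured neurons, and Sqstm1, an autophagy adaptor, at 17.0 against 495 CPM. Between slice and cultured cortical neurons 7 of 14 other fission genes were more than 2-fold lower in slice neurons, against 37% of all genes, and none was more than 2-fold higher, with a median of -1.07 against -0.24. The other pathway lists were mixed there. In slice neurons 4 of 15 fusion, 6 of 20 transport and 3 of 18 mitophagy genes were more than 2-fold higher, against 24.7% of genes. In the same order 6, 4 and 8 were more than 2-fold lower, and the mitophagy list had a median of -0.79. A lower level was not particular to fission genes. Of 18 outer membrane and import genes, 10 were more than 2-fold lower and 2 more than 2-fold higher, with a median of -1.26. Of the fission list, Mief1, which recruits Drp1 to the outer membrane, was at 6.85 CPM in slice neurons against 196 CPM in cultured neurons. Between CA1 and cortical slice neurons 8 of 15 other fusion, 4 of 13 fission, 9 of 20 transport and 8 of 18 mitophagy genes were more than 2-fold lower in CA1, against 39.8% of genes, and 3, 4, 3 and 4 of them were more than 2-fold higher, against 22.6% of genes. Between CA3 and CA1 neurons 6 of 15 other fusion, 8 of 12 fission, 13 of 19 transport and 7 of 18 mitophagy genes were more than 2-fold lower in CA3, against 46.2% of genes, and 7, 3, 3 and 6 of them were more than 2-fold higher, against 24.8% of genes. Between hippocampal and cortical cultured neurons 8 of 15 other fusion genes were more than 2-fold higher in hippocampal neurons, against 30.3% of genes, with Stoml2 at 72.1 against 13.4 CPM and Fam73a at 154 against 20.8 CPM, and 1 was more than 2-fold lower. In the other lists 3 of 15 fission, 5 of 20 transport and 6 of 18 mitophagy genes were more than 2-fold higher and 4, 2 and 4 more than 2-fold lower, where 25.3% of all genes were more than 2-fold lower. Between astrocytes of 15 and 12 days the medians of the 4 lists were between -0.06 and 0.15, and Hap1, an adaptor of motors, was at 52.6 CPM at 15 days against 2.32 CPM at 12 days.

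From cell to cell the 10 genes went together only loosely. Over 149 cells the 45 pairs had Spearman correlations of log2(CPM + 1) from 0.13 to 0.51, with a median of 0.29, and within the 86 astrocytes from -0.003 to 0.49, with a median of 0.23. These cells share library depth and amplification, and many values are 0, so the correlations are descriptions. Among the 6178 genes detected in at least 30% of cells, the pattern most like that of a member over the 149 cells was found for Mfn1 with Tspan12 and Smo (rho 0.64 for both), for Mfn2 with Reep5 and Aimp2 (0.62 for both), for Opa1 with Immt (0.57) and Nup50 (0.55), and for Dnm1l with Pcmt1 (0.56) and Fam49a (0.55). Fis1 was most like Mtch1 (0.55) and Mlf2 (0.51), Pink1 most like Skp1a (0.55) and Pex19 (0.53), Rhot1 most like Tmem29 and Tsnax (0.59 for both), Rhot2 most like Senp5 (0.50), and Trak1 most like Fam20b (0.54) and D17Wsu92e (0.52). Mff reached 0.5 with no gene.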

How the data were processed

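The deposited table holds raw counts per gene, which the authors made from stranded polyA RNA libraries of single cells. Per the submitters' processing notes, bcl2fastq and bcl2fastq2, STAR, HTSeq and the mm10 or GRCm38 build were used. For STAR and HTSeq the version, and for the counting the annotation and strand setting, are not given in these sources. All 158 columns were mapped to samples by title, and 0 were left unmapped. Libraries were summed into 149 cells: 8 pairs had a repeated title, and 1 further pair was joined because its counts were as alike as those of the repeated titles, which was chosen after seeing the data. Members were described by summed CPM, by the CPM of each cell and by detection after thinning to 1000000 counts with a fixed seed. Log2 ratios used a pseudocount of 1 CPM, and a gene was measured with 10 or more counts over both groups and a count in at least 3 cells. A call is a log2 ratio of 1 or more in size. Each group counts as 1 sample, so there is no test and no p-value. Library totals of 535369 to 38680739 counts set the precision of each cell, and the group totals that of the summed values. Exon lengths and positions came from the GRCm38 annotation. Normalization factors of edgeR 4.0.16 (TMM) and DESeq2 1.42.0 in R 4.3.3, other pseudocounts and filters, other weights of cells and left-out cells were tried as alternatives. Other steps ran in Python 3.11.15 with numpy 2.4.6, pandas 2.3.3, SciPy 1.17.1 and matplotlib 3.10.9, and the calculations were tested on simulated data. All 10 members were named, with at most 3 genes of each further list (the largest log2 ratios with 10 CPM or more in either group, in the same direction by the mean of the cells) and at most 2 genes most alike per member. Members and lists were chosen with earlier results of these data known. The labels do not explain the title letters P and F, or S and D.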

Additional observations from a re-analysis of the deposited data

Results flagged for a closer look

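In groups of 5 and 8 cells, 30 sets of a gene and a group were searched for a cell far from the others, and 4 were found. The rule flags about 1 in 20 sets of normally spread values, but many CA3 cells were at 0 CPM. The 4 can therefore not be set against that rate, and the search was not made over all genes. In CA3, Mfn2 was at 64.4 CPM in cell 3, while the next highest cell was at 0.814 CPM. Fis1 was at 1509 CPM in CA3 cell 5, while the next highest cell was at 7.14 CPM. Among cultured hippocampal neurons, cell 2 was the highest in Mfn2 at 527 CPM, with the next at 251 CPM. The same cell was the lowest in Mff at 97.2 CPM, with the next lowest at 229 CPM.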

How the results depend on the processing

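Among 900 log2 ratios of single genes under alternative settings, a change of direction was counted only where the reported ratio was past 2-fold, and 20 were found. The 900 include genes reported within 2-fold, whose changes of direction were not counted. An example is Opa1 for CA1 over cultured hippocampal neurons, at 0.71, and at -6.33 without the top cells. They also include the settings with no filter and with at least 1 CPM in either group, which left 70 of 70 ratios each the same. The 20 are thus no measure of how stable the ratios were. Without the top cell of each gene, Rhot1 was at -0.35 for cortical slice over cultured neurons, Trak1 at -1.99 for CA1 over cultured hippocampal neurons, Opa1 at -4.0 and Trak1 at -2.11 for CA1 over cortical slice neurons, and Opa1 at 2.15 and Pink1 at -1.73 for CA3 over CA1. The number of genes at a higher level then was 4 for astrocytes over cortical neurons, 1 for CA1 over cultured hippocampal neurons, 2 for CA1 over cortical slice neurons and 8 for hippocampal over cortical cultured neurons. With the mean of the cells, 5 genes were past 2-fold for astrocytes over cortical neurons, 7 were higher for hippocampal over cortical cultured neurons and 1 was higher at 15 over 12 days. With TMM factors, 3 genes were past 2-fold for slice over cultured cortical neurons, 5 were higher for CA1 over cultured hippocampal neurons, with Dnm1l at 0.037, and 2 were higher for hippocampal over cortical cultured neurons. With DESeq2 size factors, 3 were past 2-fold for slice over cultured cortical neurons, 5 were higher for CA1 over cultured hippocampal neurons, with Dnm1l at 0.16, and 5 were higher and 4 past 2-fold for CA3 over CA1. These factors moved the median of all genes by 0.17 and 0.19 for slice over cultured cortical neurons, 0.20 and 0.29 for CA1 over cortical slice neurons and, for DESeq2 only, 0.40 for CA3 over CA1, and Mfn2 for slice over cultured cortical neurons was at 0.12 and 0.18. In bcl2fastq2 libraries alone, 1 gene was higher for astrocytes over cortical neurons, 2 were higher for slice over cultured cortical neurons, 0 were past 2-fold for hippocampal over cortical cultured neurons, and Trak1 was at -2.39 for CA1 over cultured hippocampal and -2.43 for CA1 over cortical slice neurons. Without neurons holding more astrocyte markers, 5 genes were past 2-fold for astrocytes over cortical neurons and 3 for slice over cultured cortical neurons. Without slice cells holding microglia markers, 3 genes were higher for slice over cultured cortical neurons, Dnm1l was at 0.29 and Trak1 at -2.22 for CA1 over cultured hippocampal neurons, and 2 genes were higher for CA1 over cortical slice neurons, with Opa1 at -2.70 and Trak1 at -1.95. For CA3 over CA1, 6 were then higher, with Mfn1 at 0.49, Opa1 at 3.75 and Rhot1 at -0.15. Without the cell of each group with the most member counts, which was added after seeing the data, Trak1 was at -2.58 for CA1 over cultured hippocampal and -2.73 for CA1 over cortical slice neurons. Leaving out each CA3 cell in turn gave 2 to 4 genes higher and 5 to 9 past 2-fold. Pink1 then ran from -3.65 to 2.18 and Trak1 from -1.72 to 0.92. In cells with 2000 to 6000 genes, the median cultured hippocampal neuron held 9 of the 10 genes. The median of the cells' Mfn2 shares was 53.2% in CA3, 100% in CA1 and cortical slice neurons, 83% in cultured hippocampal neurons, 52.9% in astrocytes and 99.9% in cultured cortical neurons. The median Rhot2 share was 0.838% in CA3, 95.2% in CA1, 66.3% in cortical slice neurons, 13.9% in cultured hippocampal neurons, 5.28% in astrocytes and 5.07% in cultured cortical neurons. The cause of these changes was not tested. No paired analysis was possible because each group is 1 sample and no comparison has a test. At the depth used, a gene not detected in a cell may be below 5 counts rather than absent.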
